A study of Mus musculus with 10 samples.

Results

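The comparison described here is between microglia of APP/PS1 mice injected with N-AS and microglia of APP/PS1 mice for which the labels give no injection. Its members are the 7 of 10 RNA seq libraries that the labels place in these groups: 3 labelled APP/PS1+N-AS and 4 labelled APP/PS1. The other 3 libraries, labelled WT, are given for reference. All mice were 9 months old. APP/PS1 mice carry transgenes for human APP695swe and for PS1 with the M146V change, and the promoters that drive them are not given in the sources used here; the APP/PS1+N-AS group carries the same transgenes. N-AS, N-acetyl sphingosine, was given subcutaneously at 30 mg/kg every day for 8 weeks from 7 months of age. The study's own account of its RNA seq calls the APP/PS1 mice of this comparison vehicle-treated, while the labels name no injection for the APP/PS1 libraries. Each library is a pool of 2 mice. Microglia were taken from papain-dissociated cortex by a density gradient, without a sort on a surface marker. In the text, N-AS 1 to 3 are the APP/PS1+N-AS libraries and APP/PS1 1 to 4 those not given N-AS, by the replicate numbers of the labels.

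Microglia are the resident macrophages of the brain. Around amyloid plaques they move from a homeostatic state, marked by P2ry12, Tmem119 and Cx3cr1, to a disease-associated state in which the receptor Trem2 and its adaptor Tyrobp signal and genes for lipid handling, lysosomes and phagocytosis are switched on. Sphingosine kinase 1 acts on sphingosine, cyclooxygenase 2 (gene Ptgs2) makes prostaglandin precursors, and specialized pro-resolving mediators are lipid mediators that end inflammation. The comparison asks how the RNA of cortical microglia differed after N-AS was injected into APP/PS1 mice.

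The APP/PS1 libraries held 12474900 to 19432100 counted reads and the N-AS libraries 12755900 to 19035800, each rounded to the nearest 100. Levels are CPM, read counts divided by library size after edgeR's TMM scaling, so that libraries of different depth can be compared for one gene; gene length is not taken into account. Fold changes are log2 values of N-AS over APP/PS1 from edgeR's quasi-likelihood test on 18727 genes in one model of all 10 libraries. Their standard errors (SE) were derived as the absolute log2 fold change divided by the square root of the test's F statistic. Nothing in the labels says that replicates of a group came from separate cell preparations beyond the pools, so p-values measure the spread between these libraries. Intervals of counting error would cover counting only, because the reads were amplified without molecular identifiers.

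Transcripts of the sex chromosomes set N-AS 3 apart, and they go against the methods, which state that only male mice were used. Xist, the RNA that coats the inactive X chromosome of female cells, was 453, 482, 579 and 533 CPM in APP/PS1 1 to 4 and 463, 469 and 2.14 CPM in N-AS 1 to 3. Ddx3y, a Y-linked RNA helicase, was 17.5, 26.8, 0.478 and 0.476 CPM in APP/PS1 1 to 4 and 13.6, 19.03 and 73.4 CPM in N-AS 1 to 3. APP/PS1 3 and 4 therefore had Xist with next to no Y-linked reads, N-AS 3 had Y-linked reads with next to no Xist, and APP/PS1 1 and 2 and N-AS 1 and 2 had both. Library numbers 3 to 6 hold APP/PS1 1 and 2 and N-AS 1 and 2, and library numbers 8 to 10 hold APP/PS1 3 and 4 and N-AS 3, and values within each set or without N-AS 3 are given beside results that they change. Within library numbers 8 to 10, sex-linked transcripts and N-AS cannot be told apart. In WT 1 to 3, Xist was 4.40, 2.29 and 1.59 CPM and the 4 Y-linked genes summed to 177 to 197 CPM, a pattern like that of N-AS 3. For the APP/PS1 libraries and N-AS 1 and 2, genotype and sex-linked transcripts therefore cannot be told apart in comparisons with WT.

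The preparations held RNA of other brain cells as well as of microglia. The summed level of 18 microglia identity markers was 3839 to 5387 CPM in APP/PS1 and 2271 to 3191 CPM in N-AS libraries, without overlap. In WT libraries it was 1034 to 1556 CPM. The list includes Trem2, Tyrobp and Ctss, so its sum does not measure the number of microglia alone. The 22 neuron markers summed to 4024 to 5052 CPM in APP/PS1 and 4264 to 5515 CPM in N-AS, the 21 oligodendrocyte markers to 2896 to 5917 and 3489 to 5226 CPM, and the 16 astrocyte markers to 5061 to 6362 and 4528 to 6135 CPM. No marker of these lists was at 0 in all 7 libraries. In such bulk samples, fewer microglia and less RNA of a gene per microglia cannot be told apart, and this holds for every lower microglial gene below.

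**Figure D1:**
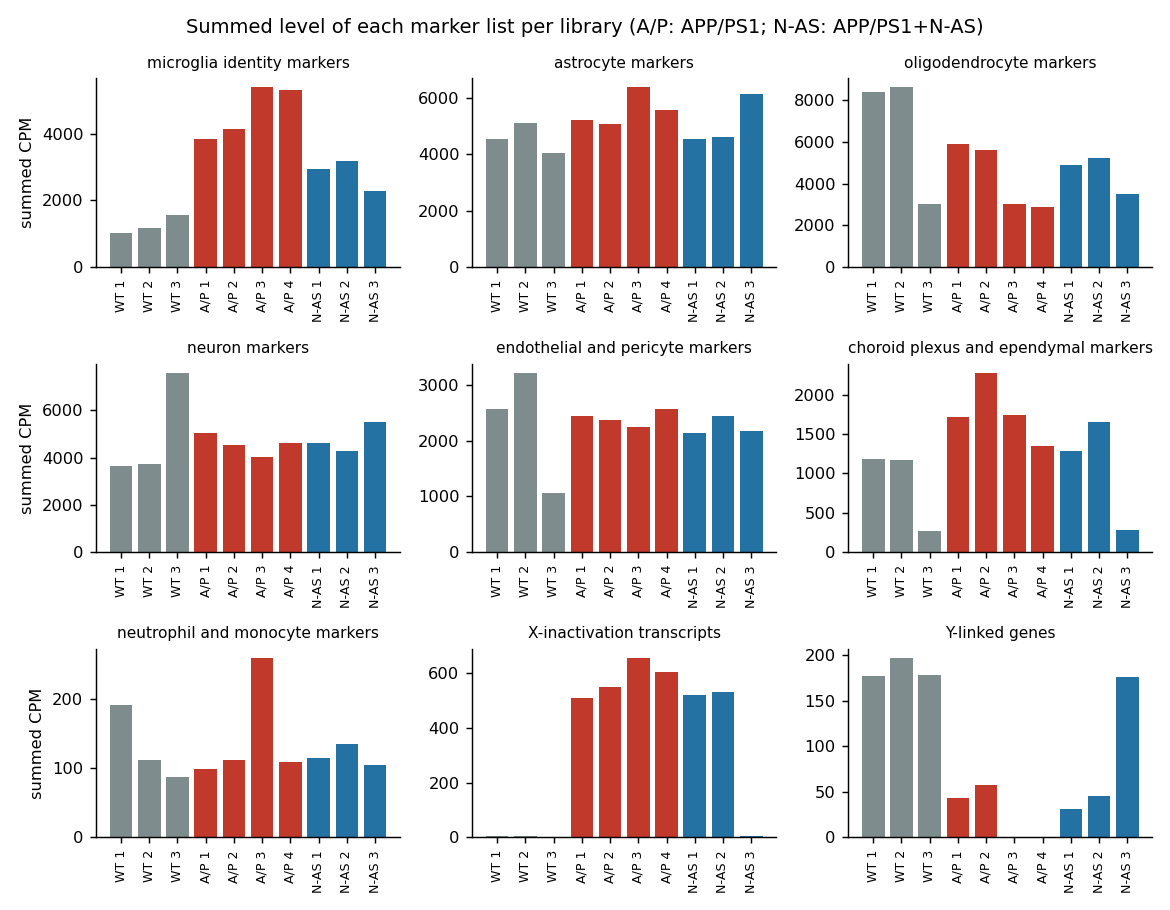
Summed CPM (vertical axes, from 0) of 9 marker lists in each library, with WT in grey, APP/PS1 in red and APP/PS1+N-AS in blue. Microglia identity markers were lower in each N-AS library than in each APP/PS1 library, while X-inactivation transcripts and choroid plexus markers were low in N-AS 3 alone among the 7 libraries.

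No gene passed an adjusted p-value of 0.05 in edgeR's test with Benjamini-Hochberg adjustment (0 of 18727 genes, 0%), and the lowest adjusted value was 0.405. At an unadjusted p under 0.05, 758 genes (4.05% of those tested) were lower and 895 (4.78%) higher with N-AS, 8.83% of the genes in all. All 3 N-AS libraries lay below all 4 APP/PS1 libraries for 1209 genes (6.46%) and above them for 1173 (6.26%). Of the 758 lower genes, 752 had a negative difference within both sets of library numbers, and of the 895 higher genes, 845 had a positive one in both; these differences use the same libraries as the p-values that chose the genes. DESeq2 called 79 genes at an adjusted p under 0.05, 58 of them lower (0.31% of the 18727) and 21 higher (0.112%). Only 14722 genes had an adjusted p in DESeq2. The limma-voom fit with quantile normalization called 0, with 809 lower and 986 higher at an unadjusted p under 0.05. With the replicate number as a block, in a fit of the 7 libraries, 0 genes passed the adjustment (lowest 0.0567), with 1210 lower and 1391 higher at an unadjusted p under 0.05. Without N-AS 3, 0 genes passed (lowest adjusted p 0.639), with 497 lower (2.5%) and 839 higher (4.21%). Because no gene passed edgeR's adjustment, each gene below is described as lower or higher by its values. Counts over lists are of genes at an unadjusted p under 0.05, to be read beside 4.05% lower and 4.78% higher of all genes. Counts of genes without overlap are to be read beside 6.46% lower and 6.26% higher.

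The genes lowest with N-AS by p-value included several of the strongest genes of plaque-associated microglia. Ccl6, a chemokine of myeloid cells (GRCm38, chr11:83587886-83593087), was 61.5, 63.7, 79.7 and 73.6 CPM in APP/PS1 1 to 4 and 34.00, 28.1 and 21.5 CPM in N-AS 1 to 3. Every N-AS library was below every APP/PS1 library, and the WT libraries were at 2.97, 4.396 and 6.12 CPM. Its log2 fold change was −1.32 (SE 0.22, edgeR unadjusted p = 8.89e-05, adjusted p = 0.405), or −1.01 within library numbers 3 to 6 and −1.83 within 8 to 10. Cst7, which encodes the cysteine protease inhibitor cystatin F (chr2:150570415-150578944), was 72.7, 81.1, 94.6 and 134 CPM in APP/PS1 and 41.6, 38.9 and 20.7 CPM in N-AS, against 0.495 to 1.07 CPM in WT. The group means of Cst7 were 95.5 ± 26.9 (SD, n = 4) and 33.7 ± 11.4 (SD, n = 3), a log2 fold change of −1.50 (SE 0.28, unadjusted p = 2.45e-04 in edgeR). DESeq2 gave adjusted p-values of 8.86e-05 for Ccl6 and 8.47e-04 for Cst7.

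Fcer1g, the signalling chain shared by Fc receptors (chr1:171229572-171234349), was 42.5, 44.95, 52.7 and 54.1 CPM in APP/PS1 and 23.6, 27.99 and 15.1 CPM in N-AS libraries. Cd180, a homologue of Toll-like receptor 4 (chr13:102693547-102706631), was 18.99, 18.5, 28.7 and 25.3 and 11.3, 11.03 and 7.68 CPM. Postn, which encodes the matrix protein periostin (chr3:54359267-54391041), was 11.9, 14.96, 15.6 and 17.2 and 8.17, 7.85 and 7.68 CPM. In these 3 genes too no N-AS library reached the lowest APP/PS1 library, and their log2 fold changes were −1.12 (SE 0.21), −1.19 (SE 0.21) and −0.92 (SE 0.16). Trp53inp2, a regulator of autophagy (chr2:155381811-155389847), was 56.9 to 67.8 CPM in APP/PS1 and 31.8 to 41.8 CPM in N-AS, a log2 fold change of −0.73 (SE 0.13, unadjusted p = 2.18e-04 in edgeR). The other 4 of the 10 lower genes with the lowest p-values, Gm13308, Gm21586, Ccl21c and Ccl21b, are described with a multicopy region of chromosome 4. Gm21586 and Ccl21b lie in it, while no position is given here for Gm13308 and Ccl21c.

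**Figure D2:**
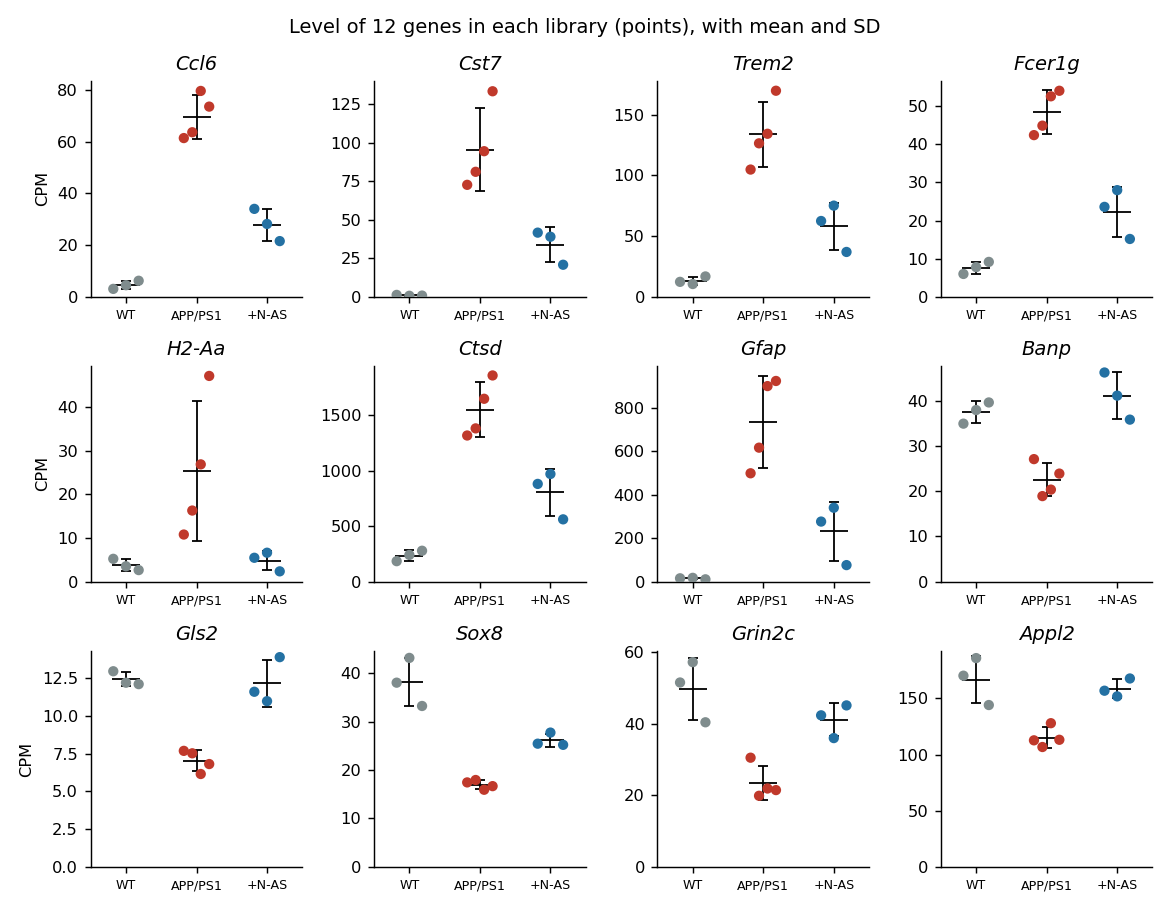
CPM (vertical axes, from 0) of 12 genes in each library as points, with the mean and SD of WT (grey, n = 3), APP/PS1 (red, n = 4) and APP/PS1+N-AS (blue, n = 3). The first 7 genes were lower and the last 5 higher in all N-AS than in all APP/PS1 libraries, and Gfap shows N-AS 3 well below N-AS 1 and 2.

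Most genes of the disease-associated state were lower with N-AS. Of 32 listed genes tested, 27 were lower and 0 higher at an unadjusted p under 0.05, beside 4.05% and 4.78% of all genes. All N-AS libraries lay below all APP/PS1 libraries for 27 of the 32, beside 6.46% of all genes. The median log2 fold change of the 32 genes was −0.79, against −0.0089 over all genes tested. Library numbers 3 to 6 alone gave −0.45, and library numbers 8 to 10 −1.57. Without N-AS 3 the median was −0.62, with 21 genes lower. Spp1, which encodes osteopontin, was 113, 117, 92.8 and 219 CPM in APP/PS1 and 45.5, 52.3 and 45.4 CPM in N-AS. Itgax, the integrin also called CD11c, was 67.3, 61.1, 83.8 and 134 and 33.1, 36.9 and 19.5 CPM. Apoe, the main lipid carrier of the brain, was 2174, 2354, 3306 and 5001 and 1539, 1691 and 1311 CPM. APP/PS1 4 was the highest library for each of these 3 genes, and no N-AS library reached the lowest APP/PS1 library. Gpnmb, a glycoprotein of lipid-laden macrophages that was named after its values were seen, had the lowest log2 fold change of the list at −2.46 (SE 0.65), from 37.9 to 143 CPM to 8.87 to 15.3 CPM. Lpl, which encodes lipoprotein lipase and is among the 5 genes of the list that did not pass, was 1308 to 4324 CPM in APP/PS1 and 1134 to 2827 CPM in N-AS, with overlapping groups and a log2 fold change of −0.36 (SE 0.57).

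In the Trem2 pathway the receptor, its adaptor and several signalling enzymes were lower, while 5 of 16 genes, Syk, Grb2, Card9, Hcst and Vav3, did not pass. Of 16 genes tested, 11 were lower and 0 higher at an unadjusted p under 0.05, all 16 had negative fold changes, and the median was −0.44. Without N-AS 3, 5 were lower and the median was −0.31. Trem2, the lipid-sensing receptor, was 105, 126, 134 and 169.8 CPM in APP/PS1 and 62.3, 75.01 and 36.8 CPM in N-AS, with WT at 10.3 to 16.6 CPM. Its log2 fold change was −1.20 (SE 0.26, unadjusted p = 7.49e-04 in edgeR), −0.75 within library numbers 3 to 6 and −2.05 within 8 to 10. Tyrobp, the adaptor DAP12, was 66.3, 63.96, 90.8 and 87.6 and 42.6, 42.99 and 24.97 CPM, a log2 fold change of −1.07 (SE 0.24). Plek, which encodes pleckstrin, was 163, 181, 172 and 165 and 109, 112 and 65.6 CPM, a log2 fold change of −0.83 (SE 0.18). The groups did not overlap for any of these 3.

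Of the 18 microglia identity markers, 15 were lower at an unadjusted p under 0.05, all 18 were negative, and the median log2 fold change was −0.71. Without N-AS 3, 10 were lower, with a median of −0.58. Cd53, a tetraspanin of leukocytes, was 35.99, 36.7, 51.3 and 44.5 CPM in APP/PS1 and 24.97, 28.5 and 23.1 CPM in N-AS (log2 fold change −0.72, SE 0.15). Ctss, which encodes cathepsin S and was the most abundant marker, was 1008, 1173, 1701 and 1761 and 811, 865 and 542 CPM (log2 fold change −0.93, SE 0.29). The 3 markers that did not pass an unadjusted p of 0.05 were Csf1r, P2ry12 and Tmem119, named here for that reason after their values were seen. P2ry12, a purine receptor of resting microglia, was 84.3, 91.9, 119.8 and 78.5 CPM in APP/PS1 and 65.03, 73.05 and 88.4 CPM in N-AS, so its groups overlapped (log2 fold change −0.31, SE 0.19). Tmem119 was 28.8 to 40.03 and 25.4 to 34.4 CPM (−0.24, SE 0.18), and Csf1r, the receptor that microglia need to survive, 438 to 549.9 and 303 to 417 CPM without overlap (−0.40, SE 0.19). Over 24 homeostatic genes, 8 were lower and 0 higher, with a median of −0.35, or −0.27 with 3 lower when N-AS 3 was left out. Among these, Gpr34, a lysophosphatidylserine receptor, had a log2 fold change of −0.66 (SE 0.20) and Cst3, which encodes cystatin C, one of −0.60 (SE 0.19), both without overlap. The difference between the disease-associated and the homeostatic medians was not tested.

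**Figure D3:**
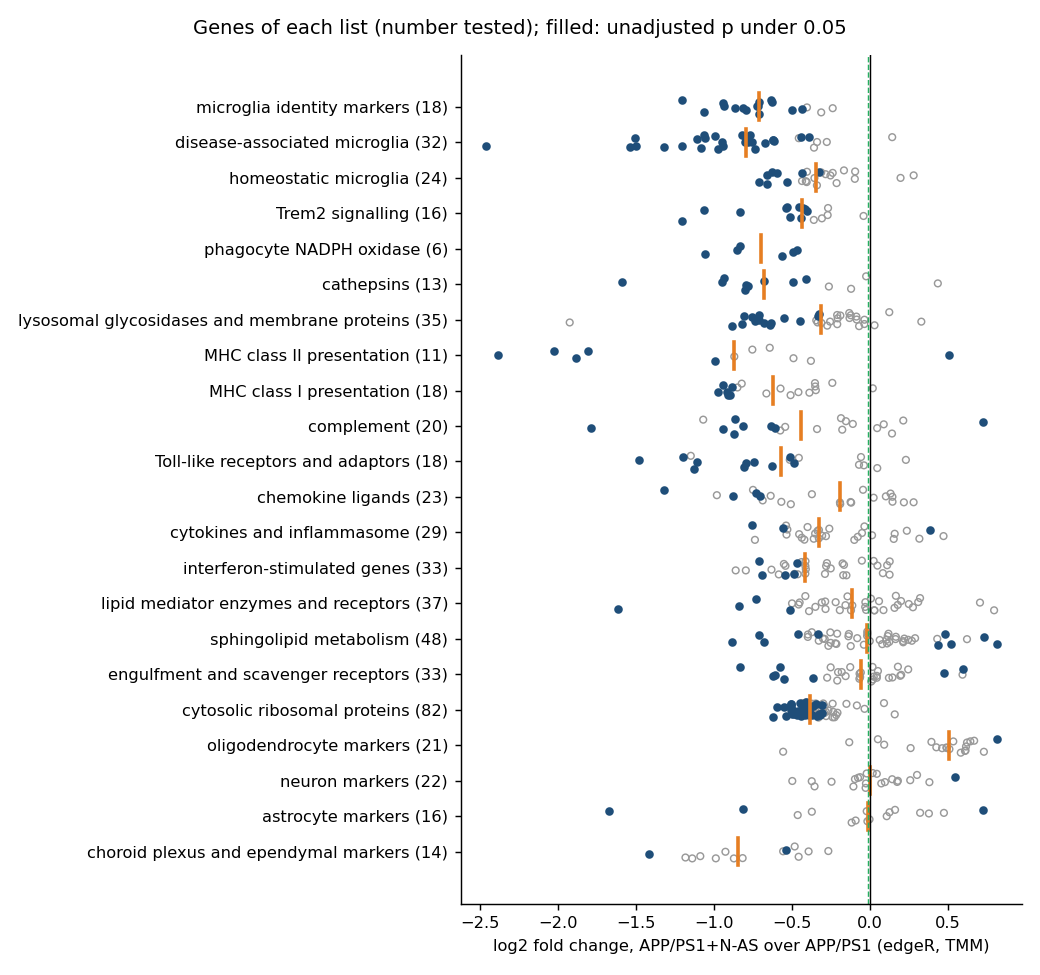
Log2 fold change of N-AS over APP/PS1 (horizontal axis) for each tested gene of 22 lists, as filled points where the unadjusted p was under 0.05 and open points otherwise; orange bars are list medians, and the dashed green line is the median of all genes at −0.0089. Microglial, lysosomal and antigen presentation lists sit to the left of 0, and most oligodendrocyte markers to the right.

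Most cathepsins and a part of the other lysosomal genes were lower with N-AS. Of 13 cathepsins tested, 9 were lower and 0 higher at an unadjusted p under 0.05, and the median log2 fold change was −0.68; without N-AS 3, 8 were lower and the median was −0.57. Ctsd, the aspartyl protease cathepsin D, was 1317, 1381, 1648 and 1858 CPM in APP/PS1 and 881, 970.2 and 562 CPM in N-AS, with WT at 185 to 279 CPM. Ctsl was 190.5 to 241 and 94.3 to 146 CPM, and Ctsz 135 to 190.0 and 60.9 to 112 CPM. In none of the 3 did the groups overlap, and their log2 fold changes were −0.95 (SE 0.24), −0.80 (SE 0.17) and −0.78 (SE 0.21). Of 35 lysosomal glycosidases and membrane proteins, 14 were lower and 0 higher, with a median of −0.31 (11 lower and −0.26 without N-AS 3). Gusb, beta-glucuronidase, was 50.3, 56.3, 80.4 and 73.1 CPM in APP/PS1 and 36.04, 43.4 and 31.2 CPM in N-AS. Glb1, beta-galactosidase, was 15.97, 17.5, 20.9 and 23.4 and 12.3, 12.1 and 12.1 CPM, with the N-AS libraries close together. Hexa, another lysosomal hydrolase, had a log2 fold change of −0.88 (SE 0.24), Gusb one of −0.82 (SE 0.18) and Glb1 one of −0.68 (SE 0.15). Mitf, a transcription factor of lysosomal genes, was 22.96 to 29.7 CPM in APP/PS1 and 14.6 to 18.1 CPM in N-AS (log2 fold change −0.58, SE 0.15), Spi1, which encodes the myeloid factor PU.1, 12.5 to 17.97 and 7.54 to 11.1 CPM (−0.62, SE 0.20), and Hif1a 177 to 253 and 128 to 157 CPM (−0.62, SE 0.17). These were 3 of the 4 of 30 transcription factor genes that were lower, and without N-AS 3 there were 2.

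The upstream sequences of genes from these groups are shown because factors of the MiT family, which includes Mitf, bind CACGTG and PU.1 binds sites with a GAGGAA core. Each line gives the 250 bases before the start of transcription in RefSeq on GRCm38.p6, 5′ to 3′ on the strand of the gene, with the matches on either strand in capitals: CACGTG for Ctsd (chr7:142387828-142388077, minus strand) and Glb1 (chr9:114400828-114401077, plus strand), GAGGAA or its reverse complement TTCCTC for Trem2 (chr17:48346151-48346400, plus strand).
Ctsd: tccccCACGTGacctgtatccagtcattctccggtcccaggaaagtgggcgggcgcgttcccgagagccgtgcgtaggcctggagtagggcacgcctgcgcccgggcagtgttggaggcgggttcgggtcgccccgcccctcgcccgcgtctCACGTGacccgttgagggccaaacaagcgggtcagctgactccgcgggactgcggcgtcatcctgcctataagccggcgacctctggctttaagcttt
Glb1: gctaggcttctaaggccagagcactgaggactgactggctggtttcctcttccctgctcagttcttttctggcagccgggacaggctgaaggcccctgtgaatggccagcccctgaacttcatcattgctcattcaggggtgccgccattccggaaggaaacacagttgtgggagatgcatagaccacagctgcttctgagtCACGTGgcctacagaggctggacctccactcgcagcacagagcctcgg
Trem2: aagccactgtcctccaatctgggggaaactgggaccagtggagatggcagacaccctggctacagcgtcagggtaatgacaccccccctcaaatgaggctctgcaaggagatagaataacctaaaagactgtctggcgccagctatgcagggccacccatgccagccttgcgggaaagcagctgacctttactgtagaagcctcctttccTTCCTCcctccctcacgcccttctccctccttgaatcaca
CACGTG stood in this window in 4 of 10 cathepsin genes and 9 of 31 other lysosomal genes with a listed promoter, beside 6.86% of all 27025 genes. It stood in 1 of 12 microglia identity markers, 3 of 27 disease-associated, 2 of 14 Trem2 signalling and 0 of 3 NADPH oxidase genes. GAGGAA stood in 10 of 12 microglia identity markers and 8 of 14 Trem2 signalling genes, beside 25.9% of all genes. It stood in 9 of 27 disease-associated genes, 14 of 31 other lysosomal and 4 of 10 cathepsin genes and 0 of 3 NADPH oxidase genes. Its longer form GAGGAAGT stood in 1 of 12 identity markers, beside 2.79%. The motifs are 3 of 8 that were counted, a match is a description of letters, and binding was not measured.

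The phagocyte NADPH oxidase, which makes superoxide, was lower in all 6 of its subunits at an unadjusted p under 0.05, with a median log2 fold change of −0.70; without N-AS 3, 2 were lower and the median was −0.51. Cybb, its catalytic subunit, was 12.4, 16.2, 28.2 and 26.9 CPM in APP/PS1 and 10.4, 12.03 and 7.83 CPM in N-AS (log2 fold change −1.05, SE 0.31). For Cybb, library numbers 3 to 6 alone gave −0.35 and 8 to 10 gave −1.81. The small GTPase Rac2 had a log2 fold change of −0.83 (SE 0.24) and Ncf4, a cytosolic subunit, one of −0.85 (SE 0.29). Ncf1 was the subunit whose groups overlapped, at 66.7 to 85.4 CPM in APP/PS1 and 39.2 to 66.95 CPM in N-AS.

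Antigen presentation genes of MHC class II had low levels in N-AS libraries and varied much among APP/PS1 libraries. H2-Aa, the alpha chain of an MHC class II molecule, was 10.8, 16.3, 26.8 and 47.1 CPM in APP/PS1 and 5.47, 6.63 and 2.36 CPM in N-AS, and WT libraries were at 2.65 to 5.23 CPM. Every N-AS library was below all 4 APP/PS1 libraries. The log2 fold change of H2-Aa was −2.38 (SE 0.51, unadjusted p = 7.53e-04 in edgeR), −1.16 within library numbers 3 to 6 and −3.97 within 8 to 10. H2-Ab1 and Cd74, the beta chain and the invariant chain, had log2 fold changes of −2.02 (SE 0.47) and −1.88 (SE 0.46). Of 11 MHC class II genes, 5 were lower, and 1 was higher, Ciita, the class II transactivator. Among 18 MHC class I genes 6 were lower and 0 higher, with a median of −0.62 (2 lower without N-AS 3, 9 with the replicate block); B2m, the shared light chain, was 247, 275, 271 and 380.4 CPM in APP/PS1 and 167, 189 and 92.1 CPM in N-AS, Psmb8, an immunoproteasome subunit, had a log2 fold change of −0.88 (SE 0.28) and H2-M3 one of −0.90 (SE 0.29). Class I genes are close paralogs, and how the counting shared reads between them is uncertain.

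Among innate immune genes, most that passed were lower. Of 20 complement genes, 7 were lower and 1 higher at an unadjusted p under 0.05 (6 and 1 without N-AS 3). Over all genes, 4.05% were lower and 4.78% higher, and these shares apply to each list of this paragraph. C3, the central complement protein, was 9.67, 14.96, 34.3 and 39.9 CPM in APP/PS1 and 6.52, 8.69 and 6.35 CPM in N-AS, a log2 fold change of −1.78 (SE 0.43). APP/PS1 3 and 4 held the high C3 values, and library numbers 3 to 6 alone gave a difference of −0.69, library numbers 8 to 10 one of −2.55. C3ar1, the receptor for the C3a fragment, was 56.9, 62.3, 64.8 and 63.4 and 46.6, 43.05 and 32.3 CPM (−0.60, SE 0.14), and Itgam, the integrin chain of complement receptor 3, had a log2 fold change of −0.64 (SE 0.16). The 1 higher gene was Cfp, which encodes properdin, at 4.099 to 9.06 and 9.91 to 11.1 CPM. Among 18 Toll-like receptors and adaptors, 10 were lower and 0 higher, with a median of −0.57 (−0.52 and 8 lower without N-AS 3). Ly86, the partner protein of Cd180, was 62.1, 55.8, 91.7 and 86.4 CPM in APP/PS1 and 37.2, 41.1 and 23.3 CPM in N-AS, and Tlr13, a sensor of bacterial RNA, 17.2 to 22.2 and 9.03 to 15.3 CPM. Of 8 Fc receptor genes, 5 were lower, and 2 without N-AS 3; Fcgr2b, the inhibitory receptor, had a log2 fold change of −0.83 (SE 0.23) and the activating Fcgr3 one of −0.50 (SE 0.19). Of 33 interferon-stimulated genes, 5 were lower and 0 higher, and without N-AS 3 the count was 0 lower. The lowest p-values of that list were those of Rtp4 (−0.69, SE 0.27), Cmpk2 (−0.47, SE 0.20) and Xaf1 (−0.54, SE 0.24).

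Among secreted mediators of inflammation, 4 of 23 chemokine ligands were lower and 0 higher at an unadjusted p under 0.05. Over all genes, 4.05% were lower and 4.78% higher. The replicate block gave 8 lower ligands, and 3 were lower without N-AS 3. Ccl4, which draws T cells and macrophages, was 30.3, 30.9, 24.7 and 22.1 CPM in APP/PS1 and 17.9, 16.96 and 9.09 CPM in N-AS. Ccl12 was 4.75, 5.45, 5.74 and 5.05 and 2.77, 3.23 and 3.47 CPM, and Ccl2, the monocyte chemoattractant, 2.93, 2.81, 2.87 and 3.62 and 1.91, 1.802 and 1.92 CPM. The groups did not overlap for the 3 genes, although Ccl2 and Ccl12 are at low levels, and the log2 fold changes were −0.88 (SE 0.24), −0.73 (SE 0.20) and −0.71 (SE 0.29). Of 29 cytokine and inflammasome genes, 2 were lower, and 1, Il1rap, was higher, beside 8.83% of all genes in either direction. Without N-AS 3 the list had 0 lower and 0 higher, and with the replicate block 9 lower and 3 higher. Nlrp3, an inflammasome sensor, was 23.99, 33.96, 21.5 and 23.7 CPM in APP/PS1 and 17.3, 19.6 and 8.94 CPM in N-AS (−0.75, SE 0.26). Tgfb1 was 15.1, 18.1, 14.2 and 14.4 and 10.2, 13.1 and 8.05 CPM (−0.56, SE 0.20). Tnf and Il1b, classical inflammatory cytokines, overlapped between the groups. Tnf was 21.7, 20.1, 11.7 and 5.14 CPM in APP/PS1 and 12.1, 13.6 and 6.87 CPM in N-AS (−0.42, SE 0.43), and Il1b 18.5, 18.2, 23.7 and 7.52 and 13.7, 18.1 and 7.83 CPM (−0.35, SE 0.37). Their values varied more within APP/PS1 than between the group means, with APP/PS1 4 lowest for both in its group. Il6 was at 0.8198 to 1.81 CPM in APP/PS1 and 0.369 to 1.59 CPM in N-AS, and Il10 and Il4 were below the filter.

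The genes that the study followed by PCR showed few differences in these libraries. Of 14 such genes, 12 passed the filter, 1 was lower, Tgfb1, and 0 were higher. The study measured its cytokine genes, Nos2 and Arg1 in whole cortex, so those values are not alike in tissue. In microglia it measured Mme, Mmp9, Ide, Cd36 and Ptgs2, and it reports Cd36 as higher with N-AS. Cd36 was not among the genes at an unadjusted p under 0.05 here, and its fold change was negative, opposite to the study's direction. Of the 12 genes tested, 11 had negative fold changes and only Ptgs2 a positive one. Arg1, a marker of alternatively activated macrophages, was at 0.762 to 1.37 and 0.132 to 1.03 CPM, too low to show a moderate difference. Cd86, a costimulatory receptor, was 14.8 to 21.2 CPM in APP/PS1 and 11.5 to 15.2 CPM in N-AS (−0.42, SE 0.19), and Mrc1, the mannose receptor CD206, 11.05 to 21.9 and 11.5 to 24.2 CPM (−0.038, SE 0.30). The amyloid-degrading proteases Mme, or neprilysin, and Ide, the insulin-degrading enzyme, had log2 fold changes of −0.62 (SE 0.35) and −0.12 (SE 0.13). Clec10a, a lectin counted among the polarization markers, had a log2 fold change of −1.74 (SE 0.69) at 0.949 to 2.87 and 0.477 to 0.659 CPM.

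Among genes of the route on which N-AS lies, Sphk1, Sphk2, Asah1, Ptgs1, Ptgs2 and Alox5 did not pass an unadjusted p of 0.05. Sphk1, sphingosine kinase 1, was 2.33, 4.05, 2.46 and 2.81 CPM in APP/PS1 and 3.03, 4.03 and 4.73 CPM in N-AS, and Sphk2 15.4 to 16.9 CPM in APP/PS1 with N-AS 1 and 2 above and N-AS 3 below that range. Both overlapped, with log2 fold changes of 0.43 (SE 0.36) and 0.17 (SE 0.13). Asah1, the acid ceramidase that releases sphingosine, was 83.6, 95.5, 109 and 94.2 CPM in APP/PS1 and 74.4, 82.6 and 76.1 CPM in N-AS. Its groups did not overlap, but the unadjusted p was 0.0627 in edgeR (log2 fold change −0.30, SE 0.14). Ptgs2 was 35.9, 35.5, 29.5 and 32.2 CPM in APP/PS1 and 43.2, 61.1 and 19.2 CPM in N-AS. N-AS 1 and 2 were above all APP/PS1 libraries and N-AS 3 below all of them, and the log2 fold change was 0.31 (SE 0.44), 0.55 within library numbers 3 to 6 and −0.69 within 8 to 10. Ptgs1 was 26.5 to 33.2 and 21.6 to 31.3 CPM (−0.22, SE 0.16), and Alox5, 5-lipoxygenase, 3.64 to 6.76 and 3.77 to 4.28 CPM (−0.45, SE 0.25).

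Of 37 lipid mediator enzymes and receptors, 4 were lower and 0 higher at an unadjusted p under 0.05, with a median of −0.11. Over all genes, 4.05% were lower and 4.78% higher. Ptger4, the prostaglandin E2 receptor EP4, was 11.6, 10.8, 8.27 and 8.14 CPM in APP/PS1 and 5.996, 6.31 and 3.84 CPM in N-AS. Tbxas1, thromboxane synthase, was 29.3, 30.6, 44.5 and 38.1 and 22.5, 23.7 and 18.2 CPM, and Hpgds, a prostaglandin D synthase, 47.99, 52.1, 72.1 and 64.6 and 41.1, 47.5 and 36.1 CPM. All 3 were without overlap (−0.84, SE 0.21; −0.73, SE 0.19; −0.51, SE 0.17). The fourth was Alox15, 15-lipoxygenase, at 0.381 to 1.37 and 0.198 to 0.296 CPM, a level of few reads. Cmklr1 and Gpr18, receptors of resolvins, had log2 fold changes of −0.12 (SE 0.21) and 0.25 (SE 0.19). Of 48 genes of sphingolipid metabolism, 5 were lower and 5 higher, beside 4.05% and 4.78% of all genes, and the median was −0.016. With the replicate block 8 were lower and 4 higher. The lower genes included the lysosomal hydrolases Glb1, Hexa and Galc and the sphingosine phosphate lyase Sgpl1, which was 53.9, 50.3, 63.8 and 66.3 CPM in APP/PS1 and 43.1, 47.8 and 36.9 CPM in N-AS (−0.46, SE 0.14). Fa2h, the fatty acid hydroxylase of myelin lipids, was among the 5 higher, at 8.63, 10.2, 4.99 and 4.76 and 11.7, 16.01 and 9.68 CPM (0.81, SE 0.36), with overlap between the groups. In lipoprotein handling, 4 of 26 genes were lower and 0 higher (7 and 1 of 25 with the replicate block), among them Npc2, a cholesterol carrier of lysosomes (−0.81, SE 0.24), and Fabp5, a fatty acid binding protein (−0.62, SE 0.22).

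Engulfment and scavenger receptors were mixed in direction. Of 33 genes, 6 were lower and 2 higher, against 2 lower and 0 higher without N-AS 3, and the median was −0.057. Over all genes, 4.05% were lower and 4.78% higher. Pros1, a bridging ligand of dying cells, was 55.2 to 81.3 CPM in APP/PS1 and 37.03 to 51.4 CPM in N-AS. Megf10, an engulfment receptor that astrocytes also carry, was 14.6, 18.2, 20.9 and 19.2 CPM in APP/PS1 and 23.98, 23.1 and 35.9 CPM in N-AS, where N-AS 3 was the highest. Megf10 belongs to a list of 6 genes, and Spp1, Itgax, Apoe and Ccl2 to a list of 8, that were picked from these same libraries by the study, so the direction of either list is not independent evidence. Of the list of 8, 8 were lower and 0 higher at an unadjusted p under 0.05, with 4 lower when N-AS 3 was left out. Of the list of 6, 5 were higher and 0 lower, with 3 higher when N-AS 3 was left out. Appl2, an adaptor of endosomes, was 113, 107, 128 and 113 CPM in APP/PS1 and 157, 152 and 168 CPM in N-AS. Tub and Rap1gap overlapped between the groups, at 64.4 to 129 and 128 to 166 CPM and at 78.5 to 174 and 146 to 272 CPM. Adam8, a metalloprotease, was 8.03, 7.52, 7.24 and 6.52 and 13.2, 8.85 and 8.13 CPM (0.46, SE 0.28).

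The genes highest with N-AS by p-value were of another kind, and in several of them the N-AS libraries lay near WT. In sex-linked transcripts, WT was like N-AS 3 and unlike the other libraries compared. Banp, a DNA-binding nuclear protein (chr8:121947972-122029260), was 27.1, 18.9, 20.4 and 23.9 CPM in APP/PS1 and 46.3, 41.1 and 35.8 CPM in N-AS, against 34.9, 37.95 and 39.6 CPM in WT. Its log2 fold change was 0.86 (SE 0.15, unadjusted p = 1.08e-04 and adjusted p = 0.405 in edgeR), 0.93 within library numbers 3 to 6 and 0.69 within 8 to 10. Gls2, the liver-type glutaminase (chr10:128194635-128210004), was 7.68, 7.52, 6.15 and 6.81 and 11.6, 10.97 and 13.9 CPM, with WT at 12.1 to 12.96 CPM. Sox8, a transcription factor of the oligodendrocyte lineage (chr17:25565893-25570686), was 17.4, 17.9, 15.9 and 16.7 and 25.4, 27.7 and 25.2 CPM, and both groups were tight. WT was higher still for Sox8, at 33.2 to 43.2 CPM. The log2 fold changes of Gls2 and Sox8 were 0.79 (SE 0.14) and 0.62 (SE 0.12), and without N-AS 3 they were 0.69 and 0.66.

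Grin2c, an NMDA receptor subunit that cortical astrocytes carry (chr11:115249169-115267297), was 30.5, 19.8, 21.9 and 21.4 CPM in APP/PS1 and 42.3, 35.9 and 45.1 CPM in N-AS. Adra1b, an adrenergic receptor (chr11:43774605-43901250), was 26.8, 29.9, 27.4 and 29.5 and 48.6, 41.8 and 37.5 CPM. Fchsd1, a protein of the actin skeleton, was 16.8, 13.9, 12.6 and 14.5 and 24.7, 21.3 and 21.6 CPM, and Gpt, alanine aminotransferase (chr15:76696726-76699675), 4.06, 7.19, 4.03 and 5.09 and 12.3, 10.7 and 9.68 CPM. None of the 4 overlapped, and the log2 fold changes were 0.81 (SE 0.18), 0.58 (SE 0.12), 0.64 (SE 0.13) and 1.09 (SE 0.24). The remaining 3 of the 10 higher genes were at low levels. Dnase1l2 was 1.43 to 2.503 CPM in APP/PS1 and 4.21 to 6.26 CPM in N-AS (1.44, SE 0.30), and the microRNA gene Mir7220 2.93 to 3.95 and 5.62 to 7.58 CPM (0.96, SE 0.19), while the long noncoding RNA 4930549C15Rik was without overlap as well. With DESeq2 the adjusted p-values were 8.47e-04 for Banp, 0.00585 for Gls2, 0.00833 for Sox8, 0.0124 for Dnase1l2 and 0.0136 for Fchsd1. Reads on a microRNA gene in such a library need not come from the mature microRNA.

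Counts of other cell types' markers depended on the fit. They are to be read beside 4.05% lower and 4.78% higher of all genes. Gfap, the intermediate filament of reactive astrocytes (chr11:102887336-102897200), was 499, 617, 899.8 and 923 CPM in APP/PS1 and 277, 340.2 and 76.2 CPM in N-AS, against 15.6, 17.6 and 10.9 CPM in WT. Every N-AS library was below every APP/PS1 library, and the log2 fold change was −1.67 (SE 0.44, unadjusted p = 0.00329 in edgeR). S100b was also lower (−0.81, SE 0.24) and Ntsr2, a neurotensin receptor of astrocytes, higher (0.73, SE 0.31), while the median of 16 astrocyte markers was −0.0081. Without N-AS 3, 4 astrocyte markers were lower and 0 higher, with a median of −0.25, and with the replicate block 2 were lower and 6 higher. Of 21 oligodendrocyte markers, 1 was higher, Fa2h, and 0 lower, yet 19 had positive fold changes and the median was 0.51; library numbers 3 to 6 alone gave 0.29 and 8 to 10 gave 0.74. The replicate block changed the oligodendrocyte count to 11 higher and 1 lower of 21. Tspan2, a myelin tetraspanin, was 51.01, 47.3, 28.8 and 34.6 CPM in APP/PS1 and 60.8, 69.1 and 54.9 CPM in N-AS without overlap (0.61, SE 0.29, unadjusted p = 0.0627 in edgeR). The part of oligodendrocyte RNA in the higher genes, Sox8 among them, was not tested.

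Of 22 neuron markers 1 was higher, Nefm, a neurofilament (0.55, SE 0.23), and 0 lower, with a median of −0.0004. That count is near the shares over all genes, 4.05% lower and 4.78% higher, which apply to every list of this paragraph. Of 25 immediate early genes, 19 had negative fold changes, with a median of −0.20; 1, Ier5, was lower, and 2, Npas4 and Arc, which neurons switch on with activity, were higher. The replicate block gave 11 lower and 2 higher, library numbers 8 to 10 alone 18 lower and 0 higher, and leaving out N-AS 3 gave 0 lower and 3 higher. Npas4 was 10.2, 9.01, 9.29 and 8.71 CPM in APP/PS1 and 20.8, 15.2 and 9.31 CPM in N-AS, and Arc 72.5, 62.97, 56.5 and 51.9 and 120.2, 105 and 53.3 CPM. For both, N-AS 1 and 2 were above all APP/PS1 libraries and N-AS 3 was among them: the differences were 0.90 and 0.73 within library numbers 3 to 6 and 0.050 and −0.025 within 8 to 10. Choroid plexus and ependymal markers had a median of −0.84 with 2 of 14 lower, or −0.46 with 3 lower without N-AS 3, and 6 were lower with the replicate block. Ttr, which the choroid plexus secretes, was 829, 1148, 829.5 and 656 CPM in APP/PS1 and 583, 783 and 0.665 CPM in N-AS, with N-AS 3 at a level that WT 3 also had (373, 373 and 1.74 CPM in WT 1 to 3). Border macrophage, endothelial, lymphocyte and erythroid lists had 0 genes at an unadjusted p under 0.05 (3, 1, 1 and 0 lower without N-AS 3), and the neutrophil and monocyte list 1 lower gene of 13. The neutrophil and monocyte markers summed to 259 CPM in APP/PS1 3 and to 99.1 to 135 CPM in the other 6 libraries; their part in other differences was not tested.

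About as many ribosomal protein genes passed as did not. Of 82 cytosolic ribosomal proteins, 41 were lower and 0 higher at an unadjusted p under 0.05, 80 were negative and the median was −0.38. Rpl12 was 105, 104, 142 and 136 CPM in APP/PS1 and 86.6, 91.7 and 73.5 CPM in N-AS (−0.53, SE 0.16), and Rpl35a 115, 91.7, 112 and 128 and 72.2, 85.4 and 82.2 CPM (−0.48, SE 0.15). Neither overlapped. The number of these calls fell when single libraries were left out. Without N-AS 3, 3 genes were lower and the median was −0.28. Without APP/PS1 4, APP/PS1 3 or N-AS 1, 15, 18 and 22 genes were lower. The median within library numbers 3 to 6 was −0.13, against −0.74 within 8 to 10. Of 74 nuclear genes for oxidative phosphorylation 3 were lower and of 23 glycolysis genes 1, beside 4.05% of all genes. Of 23 cholesterol synthesis genes 0 were lower, and of 24 heat shock and stress genes 0. With the replicate block these counts were 6, 2, 1 and 2. Of 28 cell cycle genes 5 were lower, and 2 without N-AS 3, among them Mcm6 and Mcm3 of the replicative helicase (−0.71, SE 0.21 and −0.59, SE 0.19). Slc11a1, an iron transporter of phagosomes, was 30.5, 30.7, 31.6 and 38.2 CPM in APP/PS1 and 19.9, 18.9 and 13.9 CPM in N-AS (−0.90, SE 0.20). Among the nuclear noncoding RNAs, Mirg was higher, at 9.43 to 17.4 CPM in APP/PS1 and 17.5 to 27.01 CPM in N-AS (0.71, SE 0.22). Transcripts of App, which the files do not separate into mouse and human, were 1068 to 1394 CPM in APP/PS1 and 1350.2 to 1512 CPM in N-AS, with overlap (unadjusted p = 0.337 in edgeR).

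A stretch of chromosome 4 that holds copies of the Ccl21, Ccl27, Il11ra and Fam205 genes held many lower genes; it was noticed after its values were seen. Of 14 genes tested between Gm20878 and Fam205a1 (GRCm38, chr4:41941634-42859820), 11 were lower and 0 higher at an unadjusted p under 0.05. In 10 every N-AS library lay below every APP/PS1 library. Over all genes, 4.05% were lower at that p and 6.46% lay below without overlap. Without N-AS 3, 10 genes of the stretch were lower. Of 17 genes tested on either side, between positions 41712033 and 43264873, 0 were lower and 2 higher. Both borders of the stretch are its outermost lower genes, set after the values were seen, so the 0 lower genes beside it follow from that choice. Ccl21b, a chemokine of lymphoid tissue (chr4:42173120-42256825), was 113, 102, 182 and 116 CPM in APP/PS1 and 60.6, 43.4 and 34.1 CPM in N-AS, and Gm3893 255, 230.5, 455 and 291 and 109, 109 and 81.6 CPM. Fam205a2 was 151, 139, 197 and 158 and 85.8, 96.6 and 86.1 CPM, with WT at 80.6 to 138 CPM. Gm13308, a locus for which no position is given here, had the lowest p-value of all 18727 genes, at 29.1, 24.2, 27.7 and 24.9 CPM in APP/PS1 and 14.9, 15.2 and 15.3 CPM in N-AS, with a log2 fold change of −0.81 (SE 0.11, unadjusted p = 2.34e-05, adjusted p = 0.405 in edgeR) and WT at 23.3, 22.04 and 24.2 CPM. Gm21586 was −0.70 (SE 0.12) and Ccl21c, also without a position here, −1.01 (SE 0.17). The differences were alike in both sets of library numbers for Gm13308 (−0.82 and −0.78) and Gm21586 (−0.69 and −0.72). Because the copies are nearly identical, reads can be shared between them, and 2 of them, Gm13304 and Gm10591, had the same values in every library; the genes of this block are not separate observations. In this stretch Ccl19 (0.28, SE 0.22), Ccl21a (0.12, SE 0.27) and Gm13305 (−0.72, SE 0.35) did not pass, and the first 2 were positive.

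**Figure D4:**
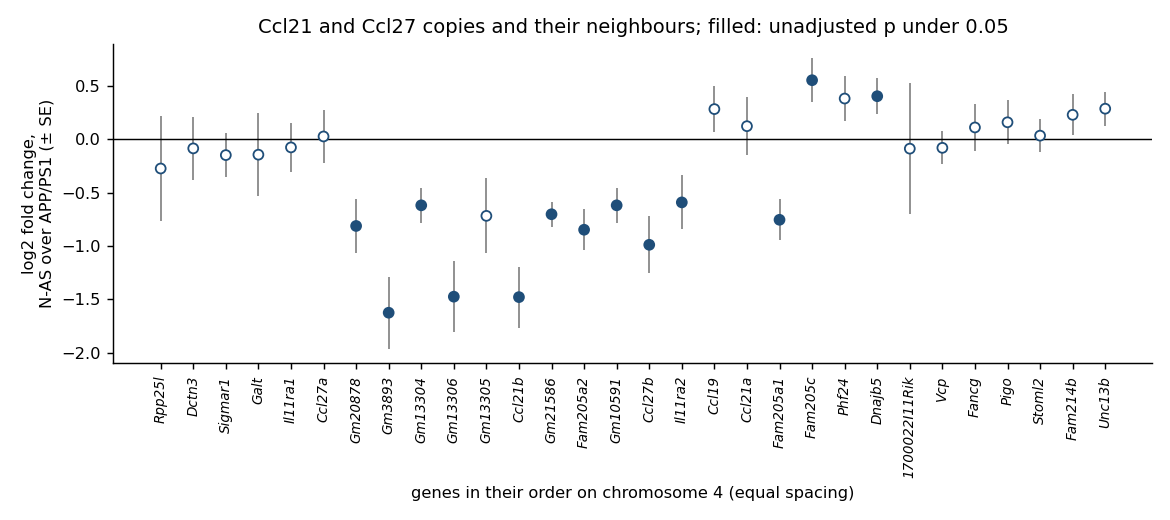
Log2 fold change of N-AS over APP/PS1 with its SE (vertical axis) for 30 genes in their order along chromosome 4, filled where the unadjusted p was under 0.05. The 11 filled points below 0 lie between Gm20878 and Fam205a1; Arid3c, at −3.53 with an SE of 1.61, is not drawn.

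The difference between N-AS and APP/PS1 was not alike in both sets of library numbers for 19 genes (0.101% of those tested), by edgeR's test of the difference itself at an adjusted p under 0.05. They include the sex-linked Xist, Tsix, Ddx3y, Uty, Kdm5d and Eif2s3y, and the choroid plexus genes Ttr and Clic6. Gfap had a log2 fold change of −0.85 (SE 0.16) within library numbers 3 to 6 and −3.58 (SE 0.24) within 8 to 10, a difference with an adjusted p of 0.00701 in edgeR. Lyz2, the lysozyme of macrophages, had differences of −0.48 and −2.04, and Tyrobp of −0.60 and −1.84. Irf8, a transcription factor of microglia, was 34.00, 35.5, 49.7 and 56.8 CPM in APP/PS1 and 35.8, 41.7 and 16.9 CPM in N-AS, so only N-AS 3 was below the APP/PS1 libraries (differences 0.16 and −1.65). Rprl3, a noncoding RNA gene, was 1.81, 1.65, 167 and 140.4 CPM in APP/PS1 and 1.05, 1.91 and 1.55 CPM in N-AS, high in APP/PS1 3 and 4 alone.

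**Figure D5:**
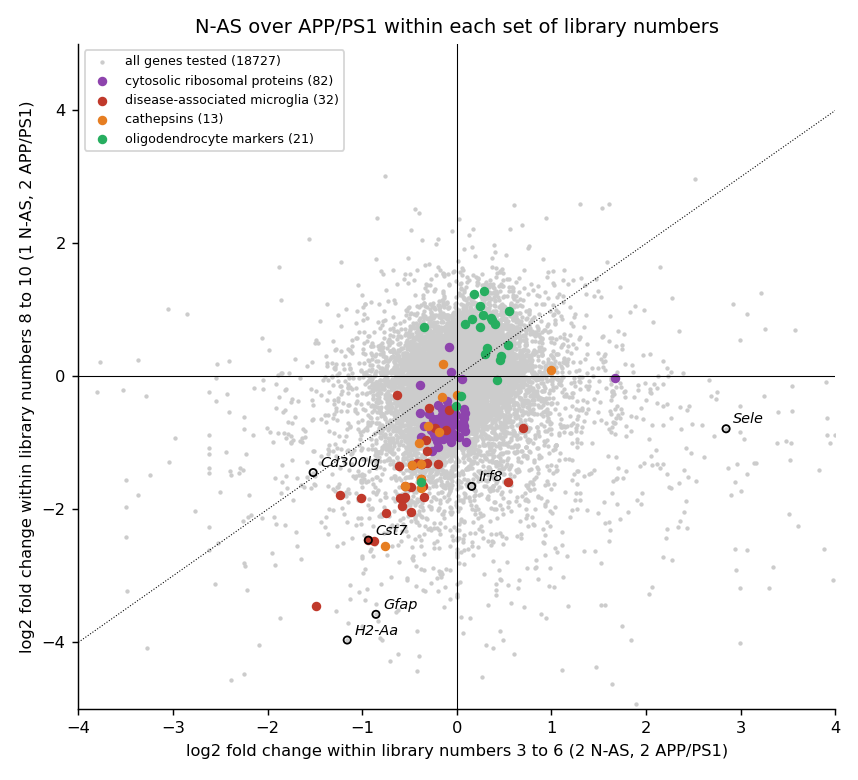
Log2 fold change of N-AS over APP/PS1 within library numbers 3 to 6 (horizontal axis) and within 8 to 10 (vertical axis) for each tested gene (grey) and 4 lists (colours), with the dotted line where both are equal; 111 genes lie outside the axes. Genes of the disease-associated list and cathepsins lie mostly below and left of 0, ribosomal protein genes below 0 but near 0 on the horizontal axis, and Sele to the right.

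Within library numbers 3 to 6, where both groups had the same pattern of sex-linked transcripts, 2 genes had an adjusted p under 0.05 in edgeR, with the spread estimated from all libraries; 715 were lower and 891 higher at an unadjusted p under 0.05. Sele, the adhesion molecule E-selectin of activated endothelium (chr1:164039614-164058487), was 1.73, 2.07, 3.07 and 2.57 CPM in APP/PS1 1 to 4 and 13.2, 14.2 and 1.63 CPM in N-AS 1 to 3. Its log2 fold change was 2.85 (SE 0.25, adjusted p = 0.0235) for library numbers 3 to 6 and −0.79 for 8 to 10. Cd300lg, which encodes the endothelial receptor nepmucin (chr11:102041511-102055617), was 725, 638, 385 and 329 CPM in APP/PS1 and 243, 233 and 131 CPM in N-AS. Its log2 fold change was −1.52 (SE 0.14, adjusted p = 0.0236) for library numbers 3 to 6 and −1.45 for 8 to 10. In WT it was at 67.3 to 257 CPM. Within library numbers 8 to 10, 552 genes had an adjusted p under 0.05, 371 lower and 181 higher, on 1 N-AS library that is assumed to vary like the others.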

How the data were processed

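RNA seq of 10 microglial libraries was analysed from the gene tables deposited for each sample. Per the labels' processing notes and the study's methods, the authors aligned reads to mm10 with TopHat and counted them on transcripts; versions and the strand setting are not given in the sources used here. The deposited values are raw counts, 24481 lines for 24421 symbols; the 103 lines that share 43 symbols were summed. Without a stated strand, overlapping and antisense genes may share reads.

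Groups and replicate numbers came from the labels. Genes were kept by filterByExpr, scaled by TMM and tested with edgeR 4.0.16 (glmQLFit, glmQLFTest) in R 4.3.3, with Benjamini-Hochberg adjustment over 18727 genes; CPM has no pseudocount. DESeq2 1.42.0, limma 3.58.1, other scalings and filters, the library number sets, a replicate block and leaving out each library were alternatives. Calculations were tested on simulated data. Same-numbered APP/PS1 and N-AS libraries deviated together (r = 0.28, 0.14 and 0.31 over genes). The replicate block treats the numbers as pairs, which the labels do not state, and APP/PS1 4 has no partner. Differently numbered libraries of the same set of library numbers also did (r = 0.17, 0.20 and 0.32), so the block cannot be told apart from the set. Named genes are the 10 with the lowest p-values in each direction whose groups do not overlap, per list the 3 with the lowest p-values and the most abundant, the sex-linked and transgene genes, genes of the N-AS and lipid mediator route, genes the study names, and the 5 with the lowest DESeq2 adjusted p per direction; of these the text gives a selection, some genes are not reported here, and other genes named were chosen after their values were seen. Members and lists were chosen with earlier results of these data known.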

Additional observations from a re-analysis of the deposited data

Results flagged for a closer look

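Of 146 named genes, 5 had one APP/PS1 library far from the other 3, by Dixon's test at the 95% level, which chance passes in about 1 in 20 groups. APP/PS1 4 was at 143 CPM for Gpnmb (next library 50.5), 38.2 CPM for Slc11a1 (next 31.6) and 3.62 CPM for Ccl2 (next 2.93). APP/PS1 3 was at 150 CPM for Gm13306 (next 88.9) and 137 CPM for Ccl27b (next 87.1), which are copies in the chromosome 4 block.

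For 19 genes the log2 effect of N-AS within library numbers 8 to 10 minus that within 3 to 6 passed an adjusted p of 0.05 in edgeR. For the sex-linked genes this difference was −8.01 for Xist, −5.66 for Tsix, 7.68 for Ddx3y, 8.20 for Uty, 12.73 for Kdm5d and 7.89 for Eif2s3y. For the choroid plexus genes it was −9.57 for Ttr and −2.33 for Clic6. Among genes of macrophages it was −1.56 for Lyz2, −1.81 for Irf8, −1.39 for Ptpn6, −1.23 for Tyrobp, −1.72 for Lsp1 and −1.96 for Lgals3bp. It was −2.73 for Gfap, −3.63 for Sele, −6.43 for Rprl3, −1.78 for Gm3704 and 1.53 for Frrs1l. The set of library numbers 8 to 10 holds 1 N-AS library, so its own features and the effect of N-AS there cannot be told apart.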

How the results depend on the processing

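Alternatives changed the number of genes called more than the direction of single genes. The count at an adjusted p under 0.05 was 0 in edgeR on all libraries, 79 with DESeq2, 2 for library numbers 3 to 6 alone and 552 for 8 to 10 alone, and it ranged from 0 to 1 when 1 library was left out. The 1 gene, without N-AS 1, was BC107364 (log2 fold change 8.25, edgeR adjusted p = 8.13e-04), with 1528 reads in N-AS 2, 486 in N-AS 3 and at most 4 elsewhere. Genes lower at an unadjusted p under 0.05 numbered 758, against 1188 in a fit of the 7 libraries alone, 1210 with the replicate number as a block in that fit, and 1552 within library numbers 8 to 10. Genes higher numbered 895, against 1391 with the replicate block and 1822 within library numbers 8 to 10. Leaving out 1 library gave 440 (without N-AS 1) to 1100 lower and 339 (without N-AS 1) to 1215 higher genes; without APP/PS1 3 there were 455 and 511, without APP/PS1 4 there were 479 and 549, and without N-AS 3 there were 497 lower. The 19 genes that differed between sets of library numbers became 113 without WT 1 and 109 without WT 2, and 8, 9, 9 and 10 without APP/PS1 1, APP/PS1 2, N-AS 1 and N-AS 2. The cause was not tested.

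Of the log2 fold changes of named genes, 27 values changed sign. For Ptgs2 it was −0.026 with the library number set as covariate, −0.69 within library numbers 8 to 10 and −0.090 without N-AS 2; leaving out single libraries gave −0.090 to 0.66. Within library numbers 8 to 10, Sphk2 was −0.11, Arc −0.025, Sele −0.79 and Mrc1 0.24. Within library numbers 3 to 6, Cmklr1 was 0.16, Irf8 0.16, Gm3704 0.33, Ddx3y −0.44, Kdm5d −0.41, Uty −0.27, Eif2s3y −0.27 and Frrs1l −0.54. With the replicate block Mrc1 was 0.027 and Frrs1l −0.025, and Mrc1 was 0.030 with the set as covariate. Leaving out 1 library at a time, Mrc1 ranged from −0.44 to 0.16, Frrs1l from −0.20 to 0.26, Cmklr1 from −0.25 to 0.081 and Gm3704 from −0.47 to 0.17.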
